A study of Homo sapiens with 6 samples.

Results

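The 9 genes described here are the Sprouty genes *SPRY1*, *SPRY2* and *SPRY4*, the SPRED genes *SPRED1*, *SPRED2* and *SPRED3*, and the PEA3 genes *ETV1*, *ETV4* and *ETV5*. They were taken by their symbols, 9 of the 58037 gene identifiers in the count tables. All 9 were measured in 6 RNA-seq libraries of HEK293T cells, a human embryonic kidney line that carries the SV40 large T antigen. In 3 libraries, called sh-control, the cells expressed a short-hairpin RNA of nonspecific sequence, and the other 3 are labelled sh-*RREB1*, with a hairpin against *RREB1*, a zinc finger transcription factor gene. They are called knockdown-labelled here. According to the study's methods, both hairpins were delivered in the pLKO.1 lentiviral vector and stable lines were selected with neomycin, so the controls carry a vector too, and the labels put all cells in DMEM with fetal bovine serum. The labels number the replicates but do not say whether they were separate cultures, so p-values measure only the spread between these libraries.

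Sprouty and SPRED proteins are feedback inhibitors of growth factor signaling. Receptor tyrosine kinases such as the FGF receptors activate RAS and the ERK cascade, the active cascade raises transcription of Sprouty and SPRED genes, and their proteins then dampen the cascade. SPRED1 does so by bringing neurofibromin, the RAS inhibitor encoded by *NF1*, to the membrane. *ETV1*, *ETV4* and *ETV5* encode the PEA3 group of ETS transcription factors, which lie at the output end: the repressor CIC keeps their genes low, ERK signaling relieves CIC, and the ubiquitin ligase COP1 degrades their proteins. The study asked what loss of *RREB1* does to target genes of the RAS-MAPK pathway.

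*RREB1* (ENSG00000124782, chromosome 6 from 7107597 to 7251980 of GRCh38) checks the labels. Levels are given as CPM, reads on the strand of the gene per 1000000 gene reads of that library, scaled by edgeR's TMM method. *RREB1* measured 27.1, 25.2 and 26.6 CPM in sh-control replicates 1, 2 and 3, against 23.7, 24.6 and 23.2 CPM in the knockdown-labelled libraries. The log2 fold change was −0.14 with a standard error of 0.13, which did not pass the test (edgeR quasi-likelihood test, adjusted p = 0.486). Each knockdown-labelled library lay below each sh-control library, which also held for 20% of all genes tested. With each library's trend on the GC content and exonic length of genes removed the log2 fold change was −0.36 (edgeR adjusted p = 0.0534). It was −0.37 with an added block for replicate number (0.0109), also short of 0.01. Every direction below therefore rests on the labels. Reads on genes ranged from 12257054 to 33044061 per library. The shallowest library, sh-*RREB1* replicate 3, also stood apart by its reads at more than one genome position, 52.1% of its aligned reads against 3.66% to 7.63% in the other libraries. Markers of HEK293 lines summed to 428 to 494 CPM in sh-control and to 717 to 835 CPM in the knockdown-labelled libraries. Most of each sum was *VIM*, at 330 to 360 CPM in sh-control and 530 to 616 CPM in the knockdown-labelled libraries. Of these 8 markers *PAX8* was too low to be tested, and *PAX2* held 3 reads in each sh-control library. Markers of 7 genes of blood, endothelium, fibroblasts and liver summed to between 0.793 and 6.84 CPM, none of the 7 was at 0 in every library although *COL1A2* was at 0 in all sh-control libraries, and the highest sum, in sh-*RREB1* replicate 2, came from 103 reads on the collagen gene *COL1A2*. The part of these differences in the results below was not tested.

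In sh-control the 9 genes covered a wide range of levels. Levels of different genes were compared as CPM per kilobase of exon, averaged over the 3 sh-control libraries. *SPRY2* had the highest level at 3.26 ± 0.174 CPM per kilobase (SD, n = 3), followed by *SPRED1* at 3.02 ± 0.488, *SPRY1* at 2.17 ± 0.232, *SPRED2* at 1.99 ± 0.499, *ETV1* at 0.887 ± 0.0841, *SPRED3* at 0.224 ± 0.0355 and *ETV5* at 0.201 ± 0.0543. *SPRY4* and *ETV4* were at or near 0. Among neighbours in this order, the libraries of *SPRY2* and *SPRED1* overlapped, as did those of *SPRY1* and *SPRED2*, of *SPRED3* and *ETV5*, and of *SPRY4* and *ETV4*, whereas each of the other neighbours was separated in all 3 sh-control libraries. Feedback inhibitors of both families were therefore well above the PEA3 genes in these cells, apart from *SPRED3* and *SPRY4*.

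**Figure D1:**
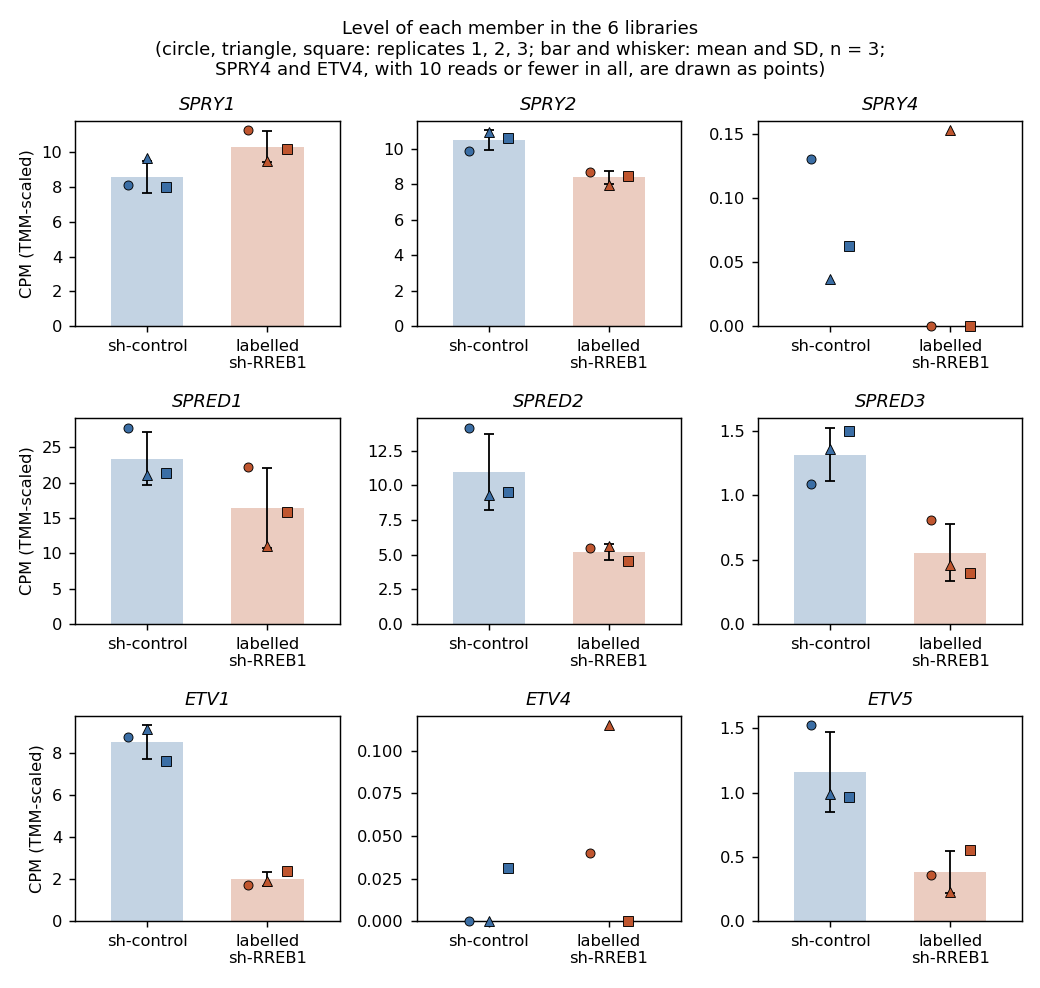
Level of each of the 9 genes (vertical axis, TMM-scaled CPM, each panel on its own scale from 0) in the 3 sh-control libraries and the 3 libraries labelled sh-*RREB1*, with the mean and SD of 3 libraries as bar and whisker except for *SPRY4* and *ETV4*, drawn as points. The groups are apart in *SPRY2*, *SPRED2*, *SPRED3*, *ETV1* and *ETV5*, each lower in the knockdown-labelled libraries, and *ETV1* is at 7.605 to 9.16 CPM against 1.73 to 2.38 CPM.

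Across the 9 genes, the PEA3 genes *ETV1* and *ETV5* and the SPRED genes *SPRED2* and *SPRED3* had the most negative log2 fold changes, from −2.10 to −1.07, while *SPRY2* was at −0.32 and *SPRY1* at 0.26. *ETV1* alone was called, which needed an adjusted p under 0.01 together with a log2 fold change beyond 1 in either direction, the study's own limits. Of the 9 genes, 8 had at least 10 reads over the 6 libraries and were tested, *SPRY4* with exactly 10. Of these 8, 1 was called lower and 0 higher by edgeR, against 0.699% of all 23304 genes tested called lower and 2.71% called higher. At an adjusted p below 0.05 with the same fold threshold, 4 of 8 were lower, against 1.6% of all genes, and 0 were higher, against 7.12%. With DESeq2 3 of the 8 met the limits of 0.01 and 1, all lower, against 1.13% of all genes called lower by DESeq2 and 5.94% called higher. In 5 of 8 every knockdown-labelled library lay below every sh-control library, compared to 20% of all genes tested. The median log2 fold change over all genes tested was 0.01. In bulk libraries, fewer cells expressing a gene and less RNA per cell cannot be told apart.

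**Figure D2:**
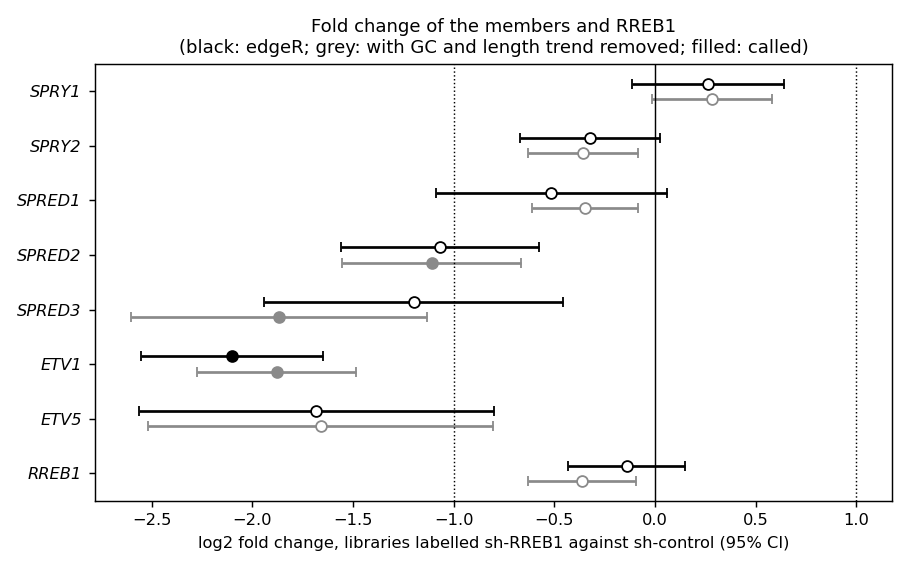
Log2 fold change of 7 of the 9 genes and of *RREB1*, knockdown-labelled against sh-control (horizontal axis), with 95% confidence intervals, from edgeR (black) and from edgeR with each library's trend on GC content and exonic length removed (grey); filled points were called. *ETV1* is called in both at −2.10 and −1.88, *SPRED2* and *SPRED3* only with the trend removed, and *SPRY1* lies above 0 in both at 0.26 and 0.28.

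*ETV1* (ENSG00000006468) lies on chromosome 7 of GRCh38 from 13891229 to 13991425, on the minus strand. Its protein is an activating transcription factor of the PEA3 group. RefSeq on GRCh38.p14 gives it 6 windows around a transcription start, each of 250 bases before and 50 bases from the start on, and the one at the outermost 5′ start is shown because it was the only window of *ETV1* with a match to any of the 4 motifs searched. The capitals mark TGAATGGA, one of the octamers that CIC binds, at bases 126 to 133 of the window.
ETV1, chr7:13991376-13991675, minus strand: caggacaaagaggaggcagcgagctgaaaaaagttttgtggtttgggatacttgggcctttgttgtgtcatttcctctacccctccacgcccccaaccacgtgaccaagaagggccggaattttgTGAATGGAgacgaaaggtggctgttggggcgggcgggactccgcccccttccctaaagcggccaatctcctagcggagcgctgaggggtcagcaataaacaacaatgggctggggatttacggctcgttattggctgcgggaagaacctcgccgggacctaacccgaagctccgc

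*ETV1* had the largest fall of the 8 genes tested. It reached 8.75, 9.16 and 7.605 CPM (201, 249 and 244 reads) in sh-control replicates 1, 2 and 3. Its knockdown-labelled libraries held 1.73, 1.91 and 2.38 CPM (43, 50 and 30 reads). Every sh-control library thus stood well above the highest of the others, and the groups did not overlap. The means were 8.50 ± 0.807 CPM and 2.01 ± 0.334 CPM (SD, n = 3 each), a log2 fold change of −2.10 (standard error 0.20, 95% confidence interval −2.55 to −1.65, edgeR adjusted p = 0.00166), or a change of −76.7%. The exact permutation test over libraries (two-sided) gave p = 0.1, the smallest that 3 against 3 allow, and so it did for *ETV5*, *SPRED2*, *SPRED3* and *SPRY2*. Leaving out each library in turn kept the log2 fold change between −2.219 and −2.002, but the call was lost without sh-*RREB1* replicate 1 (edgeR adjusted p = 0.0115), sh-*RREB1* replicate 3 (0.014) or sh-control replicate 2 (0.023).

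*ETV5* (ENSG00000244405, chromosome 3 from 186046314 to 186110318, minus strand), a paralog of *ETV1*, had the next largest negative fold change at a far lower level. It measured 1.52, 0.994 and 0.966 CPM in sh-control (35, 27 and 31 reads), against 0.363, 0.229 and 0.555 CPM in the knockdown-labelled libraries (9, 6 and 7 reads). The groups did not overlap, with sh-control replicate 1 the highest library, and the means were 1.16 ± 0.314 and 0.382 ± 0.164 CPM (SD, n = 3 each). The log2 fold change was −1.68 (standard error 0.39, 95% confidence interval −2.56 to −0.80), which did not reach the adjusted p of 0.01 (edgeR adjusted p = 0.0194) although DESeq2 called it (adjusted p = 0.00557). It stayed between −1.95 and −1.39 with a library left out, never called. *ETV5* shares 164 exonic bases with *DGKG* on the same strand, a gene with 5 to 24 reads per library, and reads there cannot be told apart.

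*ETV4* (ENSG00000175832, chromosome 17 from 43527844 to 43579620, minus strand), the third PEA3 gene, was covered by 0, 0 and 1 reads across sh-control replicates 1, 2 and 3 and by 1, 3 and 0 in the knockdown-labelled libraries. No difference was detectable at this depth, where 3 reads correspond to 0.0908 to 0.245 reads per 1000000 on genes. The strand opposite to *ETV4* held more reads, 60 in sh-control and 45 in the other group. *ETV4* shares 68 exonic bases with *DHX8*, a helicase gene on that strand with 2742 to 8729 reads per library. The PEA3 group as a whole was thus carried by *ETV1* in both groups. Summed over the 3 genes, the level per kilobase was 1.09 ± 0.108 CPM in sh-control, against 0.290 ± 0.0475 CPM in the knockdown-labelled libraries (SD, n = 3 each), and the share of *ETV1* in that sum was 81.4% and 72.1%. Neither the sums nor the shares overlapped between groups. The shares rest on few reads of the other 2 genes. In sh-*RREB1* replicate 2 the 3 reads of *ETV4* made up 0.0326 of the sum of 0.272 CPM per kilobase. *ETV5* held 6 to 9 reads per knockdown-labelled library. At such counts no difference in the share of *ETV1* can be read from the values.

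Among the SPRED genes, *SPRED2* and *SPRED3* lay below sh-control in every knockdown-labelled library, while *SPRED1*, the most abundant, overlapped between groups. Differences between the 3 paralogs were not tested. *SPRED2* (ENSG00000198369) lies on chromosome 2 from 65310851 to 65432637, on the minus strand, and *SPRED3* (ENSG00000188766) on chromosome 19 from 38388421 to 38399587, on the plus strand. Each has 2 start windows in RefSeq, and of each the one with a motif match is shown. Both windows shown lie at the downstream start, and the window at the outermost 5′ start of either gene held no match. The capitals mark the CIC octamer TGAATGAA, at bases 59 to 66 of the *SPRED3* window, and matches of the AP-1 pattern TGANTCA. In that pattern N stands for any base. Its matches lie at bases 191 to 197 of the *SPRED3* window (TGACTCA) and at bases 245 to 251 (TGACTCA) and 285 to 291 (TGAATCA) of the *SPRED2* window.
SPRED2, chr2:65366729-65367028, minus strand: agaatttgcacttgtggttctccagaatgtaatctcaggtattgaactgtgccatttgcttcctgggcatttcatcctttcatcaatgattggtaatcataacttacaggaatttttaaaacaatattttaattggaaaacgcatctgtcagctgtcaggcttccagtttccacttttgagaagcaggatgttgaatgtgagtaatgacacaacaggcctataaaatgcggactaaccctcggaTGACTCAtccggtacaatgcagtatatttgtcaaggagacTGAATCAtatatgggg
SPRED3, chr19:38389541-38389840, plus strand: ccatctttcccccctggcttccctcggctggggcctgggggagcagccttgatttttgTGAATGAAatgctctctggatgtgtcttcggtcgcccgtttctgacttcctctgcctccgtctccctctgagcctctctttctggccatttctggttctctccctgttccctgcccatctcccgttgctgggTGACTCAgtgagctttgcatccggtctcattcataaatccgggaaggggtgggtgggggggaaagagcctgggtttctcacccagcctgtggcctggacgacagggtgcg

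*SPRED2* measured 14.1, 9.27 and 9.51 CPM in sh-control (325, 252 and 305 reads), against 5.44, 5.62 and 4.52 CPM in the knockdown-labelled libraries (135, 147 and 57 reads). The groups did not overlap, and sh-control replicate 1 stood above its other 2 replicates. The means were 10.97 ± 2.75 and 5.19 ± 0.590 CPM (SD, n = 3 each). The log2 fold change was −1.07 (standard error 0.22, 95% confidence interval −1.56 to −0.58), with an edgeR adjusted p of 0.0125, just short of the call. DESeq2 called it (adjusted p = 0.000119). With a library left out the log2 fold change ran from −1.21 to −0.87, the smallest without sh-control replicate 1.

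*SPRED3*, also an inhibitor of the ERK cascade, was the scarcest SPRED gene. It measured 1.09, 1.36 and 1.496 CPM in sh-control (25, 37 and 48 reads). Its knockdown-labelled libraries held 0.806, 0.459 and 0.397 CPM (20, 12 and 5 reads). Again no library of one group reached the other, and the means were 1.32 ± 0.208 and 0.554 ± 0.221 CPM (SD, n = 3 each). The log2 fold change of −1.20 (standard error 0.33, 95% confidence interval −1.94 to −0.46) did not reach the adjusted p of 0.01 (edgeR adjusted p = 0.0343). It ran from −1.59 to −1.03 with a library left out.

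*SPRED1* (ENSG00000166068, chromosome 15 from 38252836 to 38357249, plus strand), the gene mutated in Legius syndrome, measured 27.8, 21.0 and 21.4 CPM in sh-control, against 22.3, 11.01 and 15.8 CPM in the knockdown-labelled libraries. The groups overlapped, since sh-*RREB1* replicate 1 was above sh-control replicates 2 and 3. The log2 fold change was −0.51 (standard error 0.25, 95% confidence interval −1.09 to 0.06, edgeR adjusted p = 0.186), so changes from a fall of 1.09 to a rise of 0.06 on the log2 scale lie within its interval. Over the 3 SPRED genes the summed level per kilobase was 5.24 ± 0.954 CPM in sh-control, against 3.15 ± 0.766 CPM in the knockdown-labelled libraries (SD, n = 3 each), without overlap. *SPRED1* made up 57.8% and 66.0% of it, shares that overlapped.

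The Sprouty genes, inhibitors of the same cascade, did not pass the test in either direction. *SPRY2* (ENSG00000136158, chromosome 13 from 80335976 to 80341126, minus strand) measured 9.88, 10.97 and 10.6 CPM in sh-control, against 8.70, 7.99 and 8.49 CPM in the knockdown-labelled libraries. The groups lay apart, though by a small step. The log2 fold change was −0.32 (standard error 0.15, 95% confidence interval −0.67 to 0.02, edgeR adjusted p = 0.173). *SPRY1* (ENSG00000164056, chromosome 4 from 123396795 to 123403760, plus strand) was the one tested gene of the set with a positive fold change. It measured 8.09, 9.64 and 8.01 CPM in sh-control, against 11.2, 9.48 and 10.2 CPM in the knockdown-labelled libraries, with overlap through sh-control replicate 2. Its log2 fold change was 0.26 (standard error 0.17, 95% confidence interval −0.12 to 0.64, edgeR adjusted p = 0.309). Both intervals stop short of a change of 1 on the log2 scale.

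The Sprouty sum overlapped between groups and the share of *SPRY1* in it did not. The summed level per kilobase of the 3 Sprouty genes was 5.44 ± 0.369 CPM in sh-control, against 5.22 ± 0.322 CPM in the knockdown-labelled libraries (SD, n = 3 each). *SPRY1* made up 39.8%, 41.6% and 37.9% of that sum in sh-control and 51.2%, 48.8% and 49.2% in the other libraries. The difference in share was not tested, and neither *SPRY1* nor *SPRY2* passed on its own. *SPRY4* (ENSG00000187678, chromosome 5 from 142310427 to 142326455, minus strand) was covered by 3, 1 and 2 reads across sh-control replicates 1, 2 and 3 and by 0, 4 and 0 in the knockdown-labelled libraries, which is at or near the floor of 3 reads, and no fold change is given for it.

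**Figure D3:**
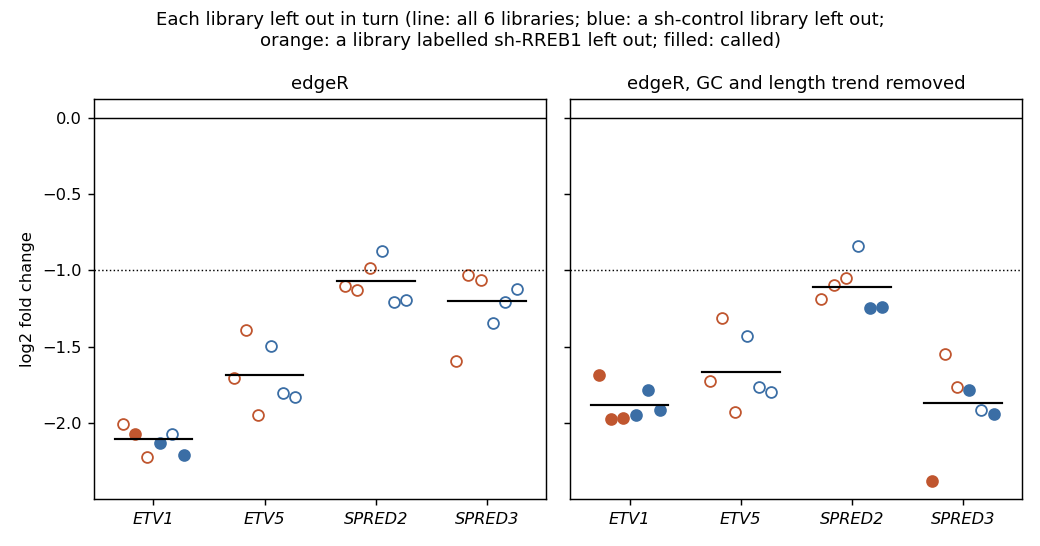
Log2 fold change (vertical axis) of the 4 genes with the largest negative values when each of the 6 libraries is left out in turn, with edgeR (left) and with the trend on GC content and exonic length removed (right); the line is the value from all 6 libraries, colour tells the group of the library left out, and filled points were called. All points lie below 0, and *ETV1* is called in 3 of 6 fits on the left and in 6 of 6 on the right.

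The libraries also differed in a way that followed the base composition of genes. Among expressed genes sorted into 10 bins of nearly equal size by the GC content of their exons, the median log2 fold change was −0.23 in the bin of lowest GC and 1.11 in that of highest GC. The 9 genes spread over this range, from 36.5% GC in *SPRED1* and 38.8% in *ETV1* to 58.0% in *SPRED3* and 60.1% in *ETV4*. The fit was therefore repeated with each library's smooth trend on GC content and exonic length removed. Called lower were then 1.2% of all genes and called higher 1.82%, and 60.2% of the 704 calls were higher in place of 79.5% of 794. Of the 8 tested genes 3 were called lower (*ETV1*, *SPRED2* and *SPRED3*) and 0 higher.

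Removing the trend moved *SPRED3* most. At its GC content and length the trend alone differed by 0.71 on the log2 scale between group means. The trend also differed within groups, at −0.84, −0.20 and −0.03 in sh-control and 0.21, 0.60 and 0.27 in the knockdown-labelled libraries. The log2 fold change of *SPRED3* went from −1.20 to −1.87 (edgeR adjusted p = 0.00248). For *SPRED2*, at 49.7% GC, the trend differed by 0.04, and the log2 fold change was −1.11 (edgeR adjusted p = 0.00265). For *ETV1* the trend differed by −0.23, which left −1.88 on the log2 scale (edgeR adjusted p = 6.7e-05). By library that trend was 0.28, 0.05 and 0.02 in sh-control and 0.06, −0.31 and −0.10 in the knockdown-labelled libraries. *ETV5* was at −1.66 (edgeR adjusted p = 0.0108), again just short of the call. *SPRED1* and *SPRY2* were at −0.35 and −0.36 and *SPRY1* at 0.28, none of which passed. With the trend removed and a library left out, *ETV1* was called in 6 of 6 fits, *SPRED3* in 3, *SPRED2* in 2 and *ETV5* in 0. A trend that differs between groups may hold part of a true difference, which these libraries cannot tell apart.

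**Figure D4:**
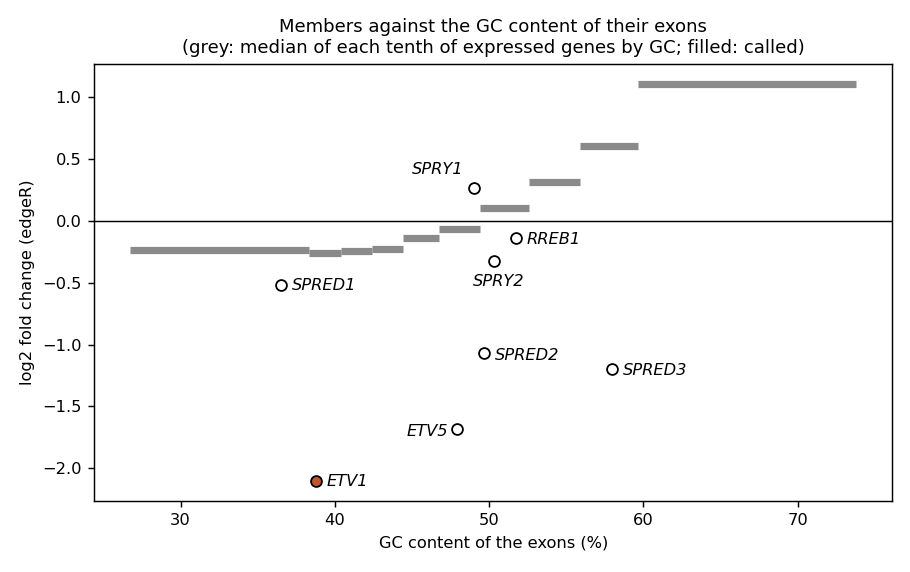
Log2 fold change (vertical axis) of 7 of the 9 genes and of *RREB1* against the GC content of their exons in percent (horizontal axis), with the medians of 10 bins of expressed genes in grey; filled points were called. The medians climb from −0.23 to 1.11, and *SPRED3* at 58.0% GC lies far below the medians at its GC content while *ETV1* lies below them at the low end.

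The motifs were sought on both strands of 35116 RefSeq start windows of GRCh38.p14, of which 17 belonged to 7 of the 9 genes. *ETV4* and *ETV5* had no entry. The CIC octamers TGAATGAA and TGAATGGA occurred in 1.65% and 1.03% of all windows, and among the 17 in 1 window of *SPRED3* and 1 of *ETV1*. The AP-1 pattern TGANTCA, with any base at N, occurred in 7.71% of all windows and in 1 window each of *SPRED2* and *SPRED3*. The ETS site CCGGAAGT occurred in 4.14% of all windows and in 0 of the 17. None of the matches overlapped another. The matches describe these letters in these windows and no binding was measured.

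The transcripts that regulate or partner these genes came from 4 lists, whose medians stand against 0.01 over all genes tested, or −0.03 with the trend removed. Their calls stand against 2.71% of all genes tested called higher and 0.699% called lower. With the trend removed these shares were 1.82% and 1.2%. Whether any list differed from these shares was not tested. The list of 11 regulators of PEA3 factors held genes of the CIC repressor complex and the COP1 ubiquitin ligase, and also *EP300* and *CREBBP*. All 11 were tested, 2 were called higher and 0 lower, and the median log2 fold change of 0.05 was the value of *EP300*. *CIC*, the repressor of PEA3 genes, rose from 1.42 ± 0.220 to 6.74 ± 1.41 CPM (SD, n = 3 each), 2.24 on the log2 scale (edgeR adjusted p = 0.00189). Its exons hold 66.0% GC, and with the trend removed the log2 fold change was 0.71 and did not pass (edgeR adjusted p = 0.0616). *DDA1*, a subunit of the ligase complexes built on DDB1, rose by 2.02 (edgeR adjusted p = 0.00579) and passed with the trend removed as well, at 1.29 (0.000125). *COP1* itself and its adaptor *DET1* were at −0.48 and −0.58 (edgeR adjusted p = 0.0152 and 0.0297), short of the call. *DDB1*, the most abundant of the list, was at 0.01 (edgeR adjusted p = 0.987). *CIC* was not called in 3 of the 6 fits with a library left out (sh-*RREB1* replicate 1, sh-*RREB1* replicate 3 and sh-control replicate 2), and *DDA1* in those and without sh-*RREB1* replicate 2.

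Of 16 partners and modifiers of Sprouty and SPRED proteins, 15 were tested, 1 was called higher and 0 lower, with a median of −0.12. The called gene was *CAV1*, which encodes the membrane protein caveolin-1. It rose from 9.66 ± 1.17 to 21.6 ± 2.33 CPM (SD, n = 3 each), 1.16 on the log2 scale (edgeR adjusted p = 0.00437), and was at 1.22 with the trend removed (0.000253). The kinase gene *TESK1* and the phosphatase scaffold gene *PPP2R1A* were at 1.31 and 1.07 (edgeR adjusted p = 0.0287 and 0.0231) and fell short of the call. With the trend removed *TESK1*, whose exons hold 62.4% GC, was at 0.26 (0.219) and *PPP2R1A* at 0.87 (0.00285). The kinase genes *BRAF* and *DYRK1A* were at −0.45 and −0.42 (edgeR adjusted p = 0.0453 and 0.0327). *NF1*, the partner of the SPRED proteins, was at 269 ± 77.3 and 195 ± 15.9 CPM (SD, n = 3 each) with a log2 fold change of −0.46 that did not pass (edgeR adjusted p = 0.112), and the phosphatase gene *PTPN11* was at −0.09 (edgeR adjusted p = 0.555). *CAV1* was called in 1 of the 6 fits with a library left out, that without sh-control replicate 1, and in 6 of 6 with the trend removed.

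**Figure D5:**
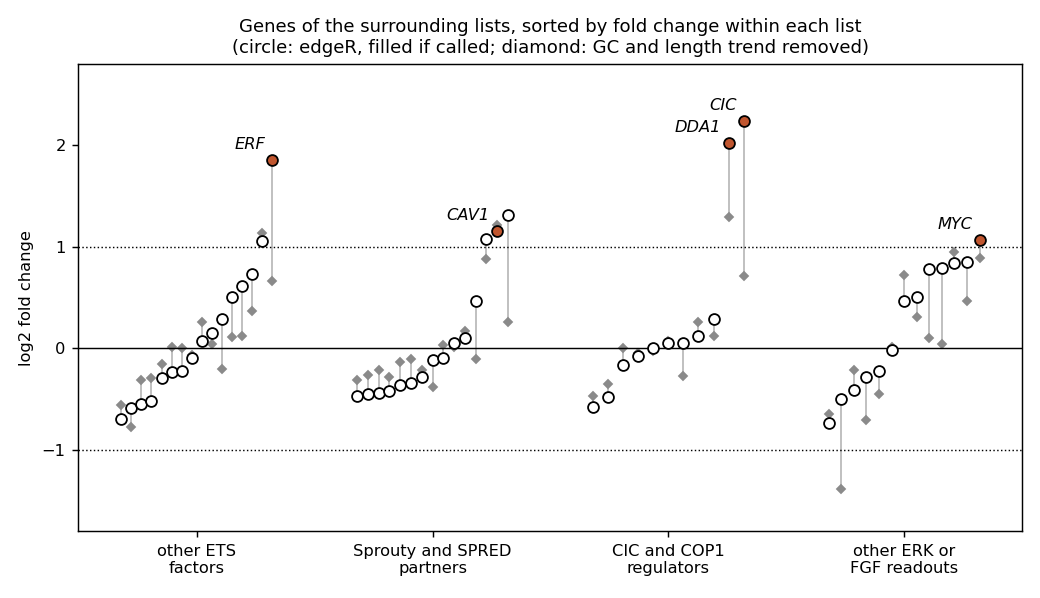
Log2 fold change (vertical axis) of the tested genes of the 4 lists, sorted within each list, from edgeR (circles, filled where called) and with the trend on GC content and exonic length removed (diamonds). The filled circles are *ERF*, *CAV1*, *CIC*, *DDA1* and *MYC*, all above 0, and the diamond of *CIC* is at 0.71 under its circle at 2.24.

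Outside the PEA3 group, 16 of 25 ETS genes were tested, 1 was called higher and 0 lower, and the median was −0.01. *ERF*, an ETS repressor that ERK inactivates, rose from 2.49 ± 1.09 to 9.12 ± 1.17 CPM (SD, n = 3 each), 1.86 on the log2 scale (edgeR adjusted p = 0.00599). With the trend removed it was at 0.66 (0.0232) and no gene of the list was called. *ELF2* was at −0.55 (edgeR adjusted p = 0.0078), below the fold threshold, and *GABPA*, among the most abundant ETS genes here, at −0.22 (0.439). *ERF* was called in 2 of the 6 fits with a library left out, those without sh-control replicate 1 or 3.

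Of 13 further transcripts used as readouts of ERK or FGF signaling, all tested, 1 was called higher and 0 lower, 7 log2 fold changes were positive and 6 negative, and the median was 0.46. With the trend removed the median was 0.04. The called gene was *MYC*, a growth-promoting transcription factor gene, which rose from 17.6 to 36.7 CPM on average, 1.06 on the log2 scale (edgeR adjusted p = 0.00349), and was at 0.89 with the trend removed. Called in 1 of the 6 fits with a library left out, that without sh-control replicate 1, it stood near the fold threshold. The ephrin receptor gene *EPHA4*, the cyclin gene *CCND1* and the early response gene *IER3* were at 0.84, 0.51 and 0.78 (edgeR adjusted p = 0.00336, 0.0373 and 0.0302). With the trend removed they were at 0.95 (5.02e-05), 0.31 (0.0643) and 0.11 (0.725). The phosphatase genes *DUSP4*, *DUSP5* and *DUSP6*, feedback inhibitors of MAP kinases named after their values were seen, were at −0.22, −0.28 and −0.73 and did not pass (edgeR adjusted p = 0.549, 0.285 and 0.385). *EPHA2* was also named after its values were seen, as the one gene of the 4 lists called lower with the trend removed, at −1.38 (8.71e-05) against −0.50 without that step.

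By profile over the 6 libraries, 3 genes lay closest to *ETV1* among 14482 genes with a mean of at least 1 CPM, by the root-mean-square difference of log2 CPM centred on each gene's mean. They were *IFIT1* at 0.139, *ZNF429* at 0.157 and *DNAI3* at 0.158. *IFIT1*, an interferon-induced gene, measured 21.7, 21.0 and 21.2 CPM in sh-control, against 4.84, 5.73 and 5.63 CPM in the knockdown-labelled libraries. All 4 genes were lower in every knockdown-labelled library than in any sh-control library, against 20% of all genes tested. For the 3 neighbours this follows from the choice, since they were picked for matching *ETV1* over the same libraries.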

How the data were processed

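RNA-seq counts of 3 sh-control libraries and 3 libraries labelled sh-*RREB1* were used. The authors aligned the reads with STAR to hg38 with a Gencode annotation and deposited raw read counts per gene and strand, without normalization, and a merged table of the same counts. The column on the strand of the gene was used, as the labels name a stranded total RNA kit. Lines for reads on no gene were left out. All 24635 identifiers of the merged table held the same counts as the library tables. Of 58037 identifiers, 45 pseudoautosomal duplicates were dropped. Where identifiers shared a symbol only that with the highest read total was kept, which left 55767, and 23304 with at least 10 reads over the 6 libraries were tested.

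The test was edgeR 4.0.16 (quasi-likelihood, TMM, condition only) in R 4.3.3, with Benjamini-Hochberg adjustment over all genes tested and calls where the adjusted p was under 0.01 and the log2 fold change beyond 1 in either direction. The study used DESeq2, run here as an alternative (version 1.42.0). Trends on exonic GC content and log2 exonic length (Gencode release 44, GRCh38) were natural splines of 5 degrees of freedom fitted to each library's log2 CPM (prior count 0.5), removed as an offset. Scripts were tested on simulated data. Without an added trend, edgeR made 1 false call. Where a GC trend that differed between libraries was added, edgeR made 210 false calls, and 1 with the offset. Of 100 changes of 1.5 on the log2 scale it then recovered 80%, and 99% with the offset. The added trend was set by hand and not fitted to these libraries. Libraries of a group differed by more than sampling noise and were all counted. Intervals are at 95%, and floors of 3 reads cover counting error only.

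The 9 genes, the lists, the motifs and the naming rule were chosen with earlier results of these data known. Within each list the genes named are those with an adjusted p below 0.05, at most 6, and the 2 most abundant, plus the 3 nearest profiles to a called member. Readouts said to be named after their values were seen, and *EP300* and *CREBBP*, are outside this rule. Other alternatives were scalings, filters, both strands, every identifier, the merged table, the replicate number as a block, other thresholds and each library left out. The offset with a library left out was added after the data were seen.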

Additional observations from a re-analysis of the deposited data

How the results depend on the processing

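No direction of a fold change of the 7 genes reversed under any alternative. *SPRED2* was called with DESeq2 (log2 fold change −1.08), with a minimum of 1 read (−1.06), with the GC and length offset (−1.11), with the replicate block (−1.06) and with both (−1.11). *SPRED3* was called with the offset (−1.87) and with the block and offset (−1.96). *ETV5* was called with DESeq2 (−1.70), with a minimum of 1 read (−1.68) and with the block and offset (−1.67). *ETV1* was called under every alternative that kept all 6 libraries. The cause of these changes was not tested. With a library left out, *ETV1* ran from −2.219 to −2.002, *SPRED2* from −1.21 to −0.87 and *SPRED3* from −1.59 to −1.03, and with the offset as well *SPRED2* ran from −1.24 to −0.84 and *SPRED3* from −2.38 to −1.55 (−1.78 and −1.94 without sh-control replicate 1 or 3).

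Of all genes, 794 were called, against 1647 with DESeq2, 1684 with the replicate block, 704 with the offset and 869 with the block and offset. With a minimum of 1 read, 1801 of 33002 tested were called. Calls numbered 2032 at an adjusted p below 0.05 and 1282 with no minimum fold. The main fit tested 8 of the 9 genes. Of the 9, 3 were called with DESeq2, with a minimum of 1 read and with the offset. With the block 2 were called, and 4 with the block and offset or at an adjusted p below 0.05. With a library left out, 8 to 1117 genes and 0 to 1 of the 9 were called, and with the offset 459 to 713 (493 without sh-*RREB1* replicate 1 and 506 without sh-control replicate 2) and 1 to 3. The fewest came from leaving out sh-*RREB1* replicate 3 (8 genes), sh-control replicate 2 (9) or sh-*RREB1* replicate 1 (25). Whether the replicate numbers pair the libraries is not settled, so calls with the block rest on numbers that may not pair. Deviations from the group means correlated at 0.50, 0.43 and −0.28 for numbers 1, 2 and 3. Among sh-*RREB1* libraries, sh-control replicate 3 correlated best with replicate 2. Within a group of 3 the deviations cancel, so these correlations are not independent and cannot decide the pairing.

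Of the other ETS genes, 0 were called with the offset, alone or with the block, and 2 with no minimum fold. Of the Sprouty and SPRED partners, 3 were called with DESeq2, a minimum of 1 read, the block or an adjusted p below 0.05. Of the CIC and COP1 list, 1 was called with the offset, alone or with the block, and of the readouts 2 with no minimum fold. Library totals as the only scaling moved the median log2 fold changes of the first 3 lists to 0.0663, −0.0352 and 0.131. The median of the readouts was 0.0444 with the offset, 0.0465 with filterByExpr and 0.0694 with the block and offset. With a library left out, the 4 lists gave 0 to 1, 0 to 1, 0 to 2 and 0 to 1 calls and medians of −0.153 to 0.0289, −0.234 to −0.101, −0.0276 to 0.0982 and 0.334 to 0.523. With the offset as well they gave 0, 1 to 2, 1 and 1 calls and medians of −0.0979 to −0.00141, −0.136 to −0.0484, −0.0359 to 0.0560 and −0.0292 to 0.108. The first was −0.0560 without sh-*RREB1* replicate 2, and the last was 0.0263, 0.0642 and −0.0292 without sh-*RREB1* replicates 1, 2 and 3 and −0.00779 and −0.0241 without sh-control replicates 2 and 3. Equal counts did not mean the same genes. With a library left out, the readout called was *MYC* without the offset and *EPHA2* with it. On all 6 libraries with the offset *EPHA2* was at −1.38. In the CIC and COP1 list only *DDA1* was called with the offset and a library left out.

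Divided by the longest transcript in place of all exons, the sh-control levels per kilobase were 3.29 CPM for *SPRY1*, 3.87 for *SPRY2*, 0.269 for *SPRED3*, 1.32 for *ETV1* and 0.284 for *ETV5*, so *SPRY1* then lay above *SPRED1* and *ETV5* above *SPRED3*. Depth limits *ETV4* and *SPRY4*, which hold 0 to 4 reads per library.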
